A study of Lupinus albus with 12 samples.

Results

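The starch genes of white lupin (Lupinus albus) roots were the 37 genes, of 33388 in the deposited table, whose protein name held the word starch, alpha-amylase, isoamylase, pullulanase, glucose-1-phosphate adenylyltransferase, glucan phosphorylase, glucan water dikinase or 4-alpha-glucanotransferase, with beta-amylases left out. They comprised 10 ADP-glucose pyrophosphorylases (AGPases, listed as glucose-1-phosphate adenylyltransferase), 12 starch synthases, 3 isoamylases, 3 glucan phosphorylases, 2 4-alpha-glucanotransferases, 5 alpha-amylases and 2 proteins named for a starch-binding domain. No gene carried the word pullulanase. Water dikinases matched none of these words, because the table spells their name with a comma, and are described with the rest of the pathway. Genes entered by name and not by a measured value, but the set was chosen with earlier results of these data known.

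The samples were root tip sections of wild-type plants of the cultivar Amiga, all grown in hydroponic Hoagland solution under a daily cycle of light and dark. Roots were exposed to 10 mM sucrose in that solution and taken from separate plants after 20, 40 and 80 min, while the controls were plants at 0 min without sucrose. Each of the 4 groups held 3 plants, and each library was polyadenylated RNA of 1 plant. Because every control was taken at 0 min, the effect of sucrose cannot be told apart from that of the time since handling or the time of day.

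Starch is made in plastids from glucose 1-phosphate, which AGPase turns into ADP-glucose, the donor that starch synthases add to growing glucan chains, while branching enzymes add branch points and isoamylases trim them. Breakdown runs through phosphorylation of the granule surface by water dikinases, cutting by beta-amylases, alpha-amylases and debranching enzymes, release of glucose 1-phosphate by glucan phosphorylases, and reshuffling of short chains by 4-alpha-glucanotransferases. In root tips, starch granules of the root cap sediment in gravity sensing, and sucrose that reaches the root is both a carbon source for starch and a signal.

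The libraries held 35050877 to 105299704 counted reads, the fewest at 20 min (replicate 2) and the most at 80 min (replicate 2). The library with the fewest reads also lay farthest out on the first principal component, which carried 18.8% of the variance, at 156. On the same side lay the 80 min replicate 3 at 108, the 40 min replicate 2 at 85.7, control replicate 3 at 33.5 and the 20 min replicate 1 at 10.6. The other 80 min libraries lay farthest out on the opposite side, at -145 and -129. All 4 genes named for the root cap were detected, and 45 genes were named expansin, a family of cell wall loosening proteins common in growing roots. The words Casparian, PLETHORA, SCARECROW, SHORT-ROOT and root meristem growth factor matched no protein name, so those markers could not be read. In whole root sections, fewer cells of a type and less RNA per cell cannot be told apart.

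Transcript levels of the starch genes spanned the range from abundant to nearly silent. Levels are compared between genes as the authors' FPKM, a read level scaled for gene length and library size, averaged over the 12 libraries. Of the 37 genes, 7 averaged at least 10 FPKM, 17 averaged between 1 and 10 FPKM and 13 averaged below 1 FPKM, beside a median of 2.49 FPKM over all genes of the table. The highest level was that of the 4-alpha-glucanotransferase Lalb_Chr08g0238881 (19.0 FPKM), followed by the AGPase Lalb_Chr04g0247361 (17.5 FPKM) and the alpha-amylase Lalb_Chr14g0368691 (14.8 FPKM). In each enzyme class a few genes carried most of the transcript, as the plot of levels by plant shows.

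**Figure D1:**
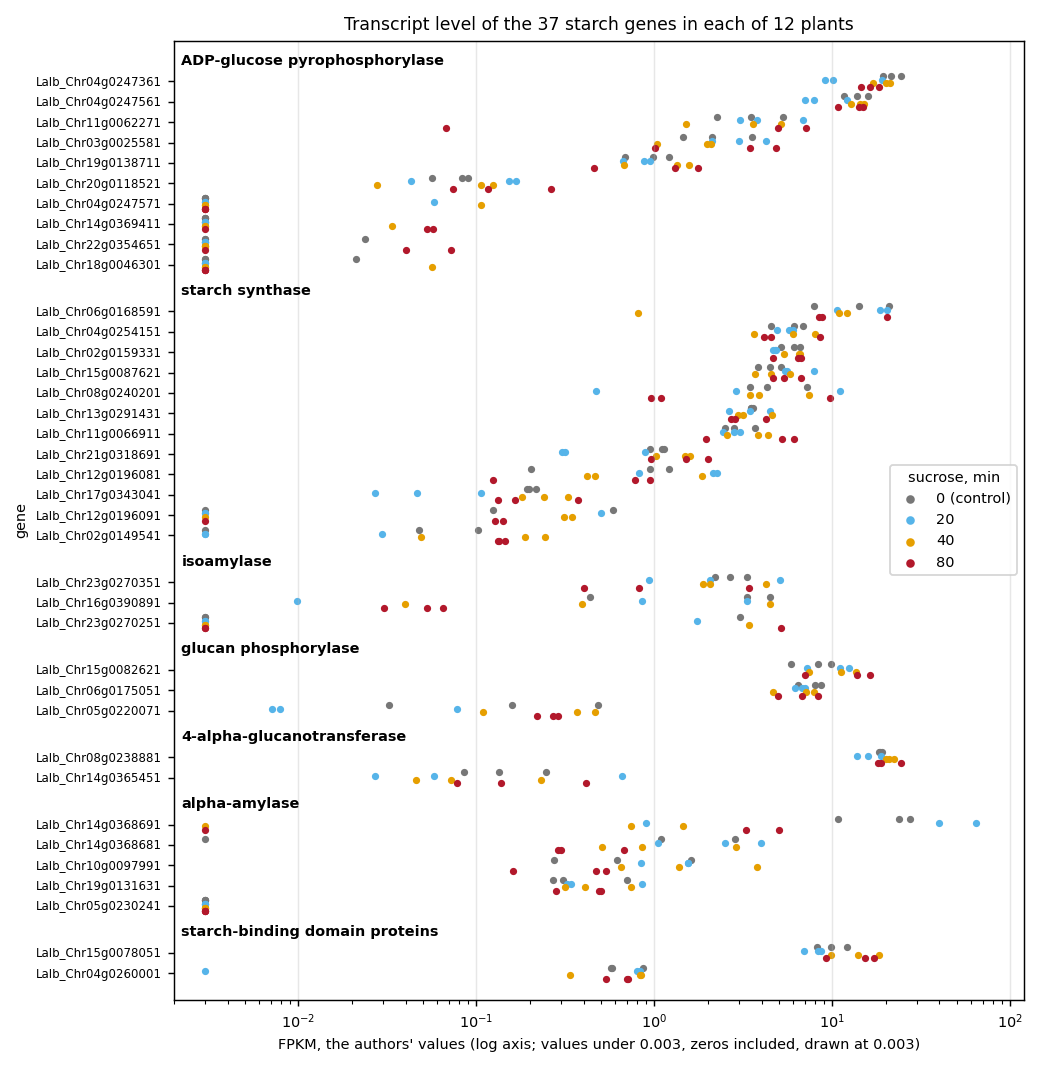
FPKM (the authors' values, log axis) of each of the 37 starch genes, grouped by enzyme class, with 1 point per plant and colours for 0 (control), 20, 40 and 80 min of sucrose, and values under 0.003 FPKM drawn at 0.003. The alpha-amylase Lalb_Chr14g0368691 spread widest among the abundant genes, from 0 to 64.3 FPKM, and the 4-alpha-glucanotransferase Lalb_Chr08g0238881 stayed between 13.8 and 24.4 FPKM.

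The 5 members left out of the tests for too few reads had 3 to 36 reads in all 12 libraries together. They were the AGPases Lalb_Chr04g0247571, Lalb_Chr14g0369411, Lalb_Chr22g0354651 and Lalb_Chr18g0046301 and the alpha-amylase Lalb_Chr05g0230241. The other 32 genes were tested. The authors' annotation listed 16 of the 37 members as plastid proteins: 9 AGPases, 5 starch synthases and 2 isoamylases. The identifiers placed the members on 20 chromosomes, and 3 pairs were neighbours in NCBI's gene set for CNRS_Lalb_1.0. These pairs were the AGPases Lalb_Chr04g0247561 and Lalb_Chr04g0247571, the starch synthases Lalb_Chr12g0196081 and Lalb_Chr12g0196091, and the alpha-amylases Lalb_Chr14g0368681 and Lalb_Chr14g0368691. How reads that match several genes were counted is not stated in the labels or headers, so the split of reads within a pair, and among close copies elsewhere in these families, is uncertain.

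Log2 ratios are edgeR's log2 fold changes of sucrose over control, or of the later over the earlier sucrose time, given ± SE. No starch gene passed the test against control after 20, 40 or 80 min of sucrose, neither among those of synthesis nor among those of breakdown. Of the 32 starch genes tested with edgeR's quasi-likelihood test, adjusted over 28980 genes, 0 reached an adjusted p below 0.05 at 20 min, where 0.0242% of all genes tested did. At 40 min the count was 0 with 0.0897% of all genes, and at 80 min it was 0 with 0.0104%. With the 3 sucrose times averaged against control it was 0 with 0.162%, and in the F test over the 4 groups 0 with 0.0725%. At this rarity of calls over all genes, a count of 0 among 32 does not set the starch genes apart.

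At 20 min, 4 of the 32 starch genes reached an unadjusted p below 0.05, beside 12.6% of all genes tested, which is close to the same share. At 40 min 1 did beside 5.99%, and at 80 min 1 did beside 9.91%. With the sucrose times averaged, 0 did beside 9.18%, and in the F test 0 did beside 13.4%. DESeq2 called 0 starch genes at 20 min, with 4.44% of all genes called, 0 at 40 min with 2.04% and 1 at 80 min with 3.11%. It called 0 over the averaged sucrose times, with 2.82%, and 0 in its test over the 4 groups, with 8.37%. In the authors' deposited table, 0 of 31 starch genes with an adjusted p were below 0.05 at 20 min, beside 4.09% of all genes listed with one, 0 of 31 at 40 min beside 1.93% and 1 of 31 at 80 min beside 2.97%. All of these comparisons share the same 3 control plants.

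The set showed no common direction. At 20 min 16 of the 32 tested genes were above control and 16 below, with a median log2 fold change of 0.00 beside 0.06 over all genes. At 40 min 14 were above and 18 below, with a median of -0.07 beside 0.08. At 80 min 15 were above and 17 below, with a median of -0.09 beside 0.12. A change of more than 1 on the log2 scale in either direction was seen in 15.6% of the tested starch genes at 20 min, 9.38% at 40 min and 18.8% at 80 min, beside 23.2%, 16.3% and 20.2% of all genes. The summed level of all 37 genes was 162 ± 20.1 FPKM in the controls, 163 ± 17.7 at 20 min, 143 ± 10.9 at 40 min and 144 ± 1.91 at 80 min (SD, n = 3 plants each). In CPM (edgeR's counts scaled for library size) the sum was 620 ± 77.9, 654 ± 41.7, 542 ± 54.1 and 559 ± 29.9 in the same order. Groups did not overlap for 1 gene higher and 1 lower at 20 min, where 10.8% of all genes tested were so in each direction. At 40 min this held for 0 higher (6.9% of all genes) and 1 lower (8.35%), and at 80 min for 1 higher (8.62%) and 3 lower (9.05%).

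**Figure D2:**
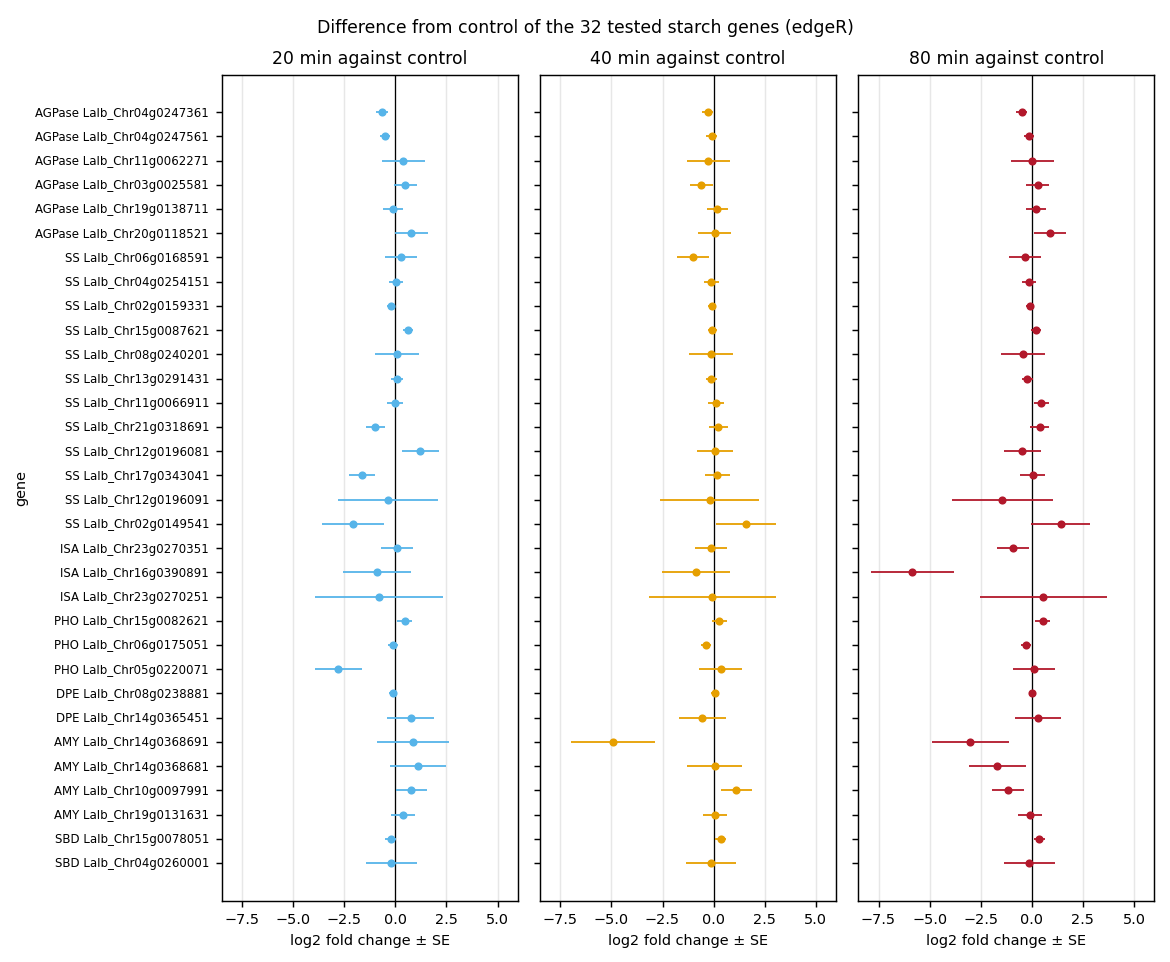
Log2 fold change over control (x axis, points, with bars of 1 SE from edgeR) of the 32 tested starch genes at 20, 40 and 80 min, ordered by enzyme class (AGPase, ADP-glucose pyrophosphorylase, SS, starch synthase, ISA, isoamylase, PHO, glucan phosphorylase, DPE, 4-alpha-glucanotransferase, AMY, alpha-amylase, SBD, starch-binding domain protein). Of the 32 points, 5 at 20 min, 3 at 40 min and 6 at 80 min lie more than 1 from 0, and the farthest out were the isoamylase Lalb_Chr16g0390891 at 80 min (-5.85) and the alpha-amylase Lalb_Chr14g0368691 at 40 min (-4.93), with SEs of 2.03 and 2.06.

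AGPase makes ADP-glucose and is taken as the committed step of starch synthesis. Its leading gene Lalb_Chr04g0247361 held 46.0% of the FPKM of the class as a mean over libraries, and Lalb_Chr04g0247561 held 33.2%. The gene Lalb_Chr04g0247361 measured 32.6, 69.2 and 35.4 CPM in the 20 min plants, against 78.1, 75.3 and 62.6 CPM in control plants. CPM, edgeR's counts scaled for library size, are used here for 1 gene or a sum of genes across plants. Replicates 1 and 3 at 20 min lay far below every control, and replicate 2 lay among the controls. The test gave a log2 ratio of -0.66 ± 0.27, edgeR adjusted p = 0.363, with an unadjusted p of 0.0375.

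At 40 min Lalb_Chr04g0247361 measured 60.0, 53.0 and 63.8 CPM, and at 80 min 49.9, 58.1 and 45.2 CPM. All 3 plants at 80 min and 2 of 3 at 40 min were below the lowest control. At 40 min the test gave a log2 ratio of -0.29 ± 0.27, edgeR adjusted p = 0.999, and at 80 min a log2 ratio of -0.50 ± 0.27, edgeR adjusted p = 0.560. Over the averaged sucrose times it gave a log2 ratio of -0.48 ± 0.22, edgeR adjusted p = 0.546. Without the 20 min replicate 2 the gene passed at 20 min, with a log2 fold change of -1.14 and an edgeR adjusted p of 0.0208, in a fit in which 3.43% of all genes tested were called. Without that library and the 80 min replicate 3, it passed over the averaged sucrose times (log2 fold change -0.64, edgeR adjusted p = 0.0391), where 3.55% of all genes were called. The 20 min replicate 2 was the plant that lay among the controls for this gene, so these fits are no separate support for a difference.

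The second AGPase, Lalb_Chr04g0247561, repeated the order of plants at 20 min, with 13.8, 24.1 and 15.0 CPM compared with 27.9, 26.7 and 20.8 CPM in control plants (log2 ratio -0.51 ± 0.25, edgeR adjusted p = 0.427). It measured 24.9, 21.7 and 23.7 CPM at 40 min and 18.2, 24.5 and 25.2 CPM at 80 min, and both groups overlapped the controls. Without the 20 min replicate 2 its log2 fold change at 20 min was -0.86, with an edgeR adjusted p of 0.0770. The remaining tested AGPases were lower and more variable. Lalb_Chr11g0062271 averaged 3.91 FPKM and ranged from 0.0674 to 7.07 FPKM, with its lowest value in the 80 min replicate 3. Lalb_Chr03g0025581 averaged 2.57 FPKM, Lalb_Chr19g0138711 1.04 FPKM and Lalb_Chr20g0118521 0.109 FPKM. Their edgeR adjusted p was at least 0.705 at each time. The summed AGPase level was 42.5 ± 6.56 FPKM in the controls, 30.4 ± 6.02 at 20 min, 39.9 ± 5.17 at 40 min and 38.2 ± 6.65 at 80 min (SD, n = 3 each). In CPM it was 127 ± 21.9, 102 ± 17.9, 106 ± 12.3 and 107 ± 26.1 in the same order.

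Starch synthases elongate glucan chains, and 7 of the 12 genes averaged above 3 FPKM, so no single gene carried this class. The highest, Lalb_Chr06g0168591, held 28.1% of the class and measured 31.0, 90.1 and 56.5 CPM in control plants, 46.6, 90.6 and 79.0 CPM at 20 min, 44.6, 41.8 and 3.00 CPM at 40 min and 31.6, 34.1 and 77.4 CPM at 80 min. Its lowest plant was the 40 min replicate 3, and each sucrose group overlapped the controls. Against control the 40 min plants had a log2 ratio of -0.99 ± 0.79, edgeR adjusted p = 0.999. The next genes were Lalb_Chr04g0254151 at 5.73 FPKM, Lalb_Chr02g0159331 at 5.67, Lalb_Chr15g0087621 at 5.25, Lalb_Chr08g0240201 at 4.65, Lalb_Chr13g0291431 at 3.47 and Lalb_Chr11g0066911 at 3.43 FPKM.

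At 20 min the starch synthase Lalb_Chr15g0087621 was higher than control in every plant, at 56.2, 40.0 and 37.5 CPM compared with 32.8, 26.6 and 28.8 CPM. The log2 fold change was 0.60 with an SE of 0.24, and the edgeR adjusted p was 0.354 (unadjusted 0.0328). At 40 min it measured 27.1, 35.9 and 22.0 CPM and at 80 min 32.6, 29.1 and 41.0 CPM, both overlapping the controls. The low gene Lalb_Chr17g0343041 was lower at 20 min, at 0.181, 0.106 and 0.417 CPM compared with 0.757, 0.763 and 0.673 CPM in control plants, with no overlap (log2 ratio -1.62 ± 0.64, edgeR adjusted p = 0.347). It measured 0.791, 0.623 and 1.08 CPM at 40 min and 0.549, 0.457 and 1.25 CPM at 80 min.

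The starch synthase Lalb_Chr21g0318691 was also low in replicates 1 and 3 at 20 min, with 1.62, 4.64 and 1.55 CPM in sucrose-treated plants against 5.26, 5.66 and 4.42 CPM in control plants (log2 ratio -0.98 ± 0.47, edgeR adjusted p = 0.422). Replicate 2 overlapped the controls. Without replicate 2 the log2 fold change was -1.75 and the edgeR adjusted p 0.0453. As the plant left out was the one that overlapped the controls, this fit is no separate support. At 40 min the gene measured 6.94, 4.63 and 6.48 CPM and at 80 min 8.91, 6.91 and 4.31 CPM.

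Among the others, Lalb_Chr12g0196081 had the next smallest p among genes above control at 20 min, with 5.29, 5.62 and 1.99 CPM compared with 0.466, 2.32 and 2.71 CPM (log2 ratio 1.23 ± 0.90, edgeR adjusted p = 0.591). Summed with its neighbour Lalb_Chr12g0196091, which shares the name and may share reads, it came to 5.29, 7.77 and 1.99 CPM at 20 min compared with 2.70, 2.32 and 3.19 CPM. Lalb_Chr02g0149541, the lowest of the class at 0.0890 FPKM, was higher than every control at 80 min, with 0.458, 0.438 and 0.420 CPM compared with 0.155, 0 and 0.336 CPM (log2 ratio 1.41 ± 1.44, edgeR adjusted p = 0.745). Lalb_Chr02g0159331 was the steadiest, with a within-group coefficient of variation of 12.7%, against 88.8% for Lalb_Chr08g0240201. The summed starch synthase level was 44.3 ± 2.70 FPKM in the controls, 46.6 ± 10.9 at 20 min, 39.5 ± 8.82 at 40 min and 43.9 ± 12.8 at 80 min (SD, n = 3 each). In CPM it was 196 ± 20.5, 222 ± 47.0, 162 ± 38.5 and 184 ± 47.8 in the same order.

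**Figure D3:**
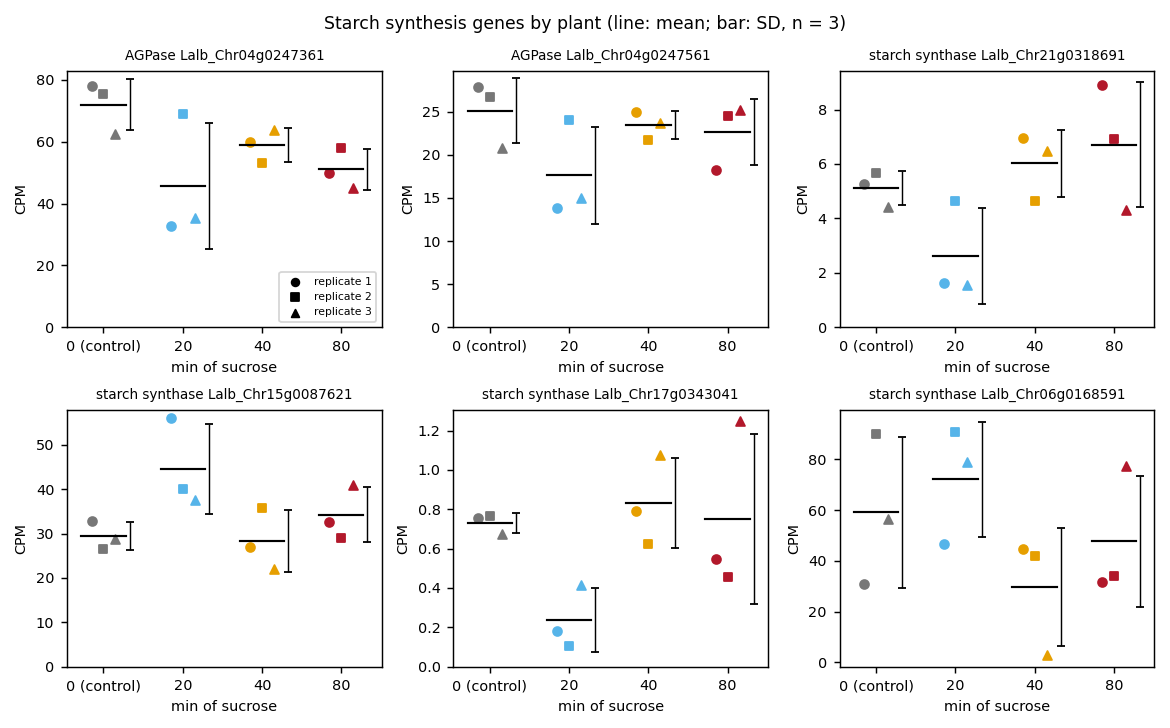
CPM (y axis, from 0 or just under it) of 2 AGPase and 4 starch synthase genes in each plant by min of sucrose (x axis, 0 is control), with marker shape for the replicate number, a line for the mean and a bar for the SD (n = 3). In the 20 min group replicate 2 stands above replicates 1 and 3 for both AGPases and for Lalb_Chr21g0318691, while all 3 plants stand above the controls for Lalb_Chr15g0087621 and below them for Lalb_Chr17g0343041.

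Isoamylases remove branches from glucans, both while granules form and while they are broken down. The isoamylase Lalb_Chr16g0390891 gave the smallest p of any starch gene at 80 min. It measured 0.240, 0.305 and 0.140 CPM at 80 min, compared with 2.02, 22.5 and 15.5 CPM in control plants. All 3 plants at 80 min were below every control, but the controls themselves spread widely. The log2 fold change was -5.85 with an SE of 2.03, and the edgeR adjusted p was 0.426 (unadjusted 0.0160). DESeq2 called the gene at 80 min, with a log2 fold change of -5.89 and an adjusted p of 0.00489, and the authors' deposited table lists -5.89 and 0.00466 for it.

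Values as low as those at 80 min also occurred in single plants at the earlier times. The gene measured 17.0, 4.45 and 0.0521 CPM at 20 min and 0.178, 20.0 and 1.71 CPM at 40 min, so 1 plant in each of these groups lay in the range of the 80 min plants or below it. Its within-group coefficient of variation of 125% was above that of 96.6% of the 23627 genes with a mean of at least 1 CPM. The more abundant isoamylase Lalb_Chr23g0270351 measured 12.3, 11.2 and 15.6 CPM in control plants, 4.82, 26.6 and 10.3 CPM at 20 min, 8.14, 19.1 and 8.91 CPM at 40 min and 15.0, 3.78 and 1.82 CPM at 80 min. At 80 min it had a log2 ratio of -0.92 ± 0.78, edgeR adjusted p = 0.688, with 2 of 3 plants below the lowest control. The short isoamylase Lalb_Chr23g0270251 had no reads in 8 of 12 libraries and between 1.33 and 3.36 CPM in the others, 1 in each group.

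Glucan phosphorylases release glucose 1-phosphate from glucan ends. The leading gene Lalb_Chr15g0082621 (10.3 FPKM, 58.3% of the class) measured 80.8, 69.9 and 35.3 CPM at 80 min, compared with 51.3, 47.0 and 30.8 CPM in control plants. Replicates 1 and 2 at 80 min were above every control and replicate 3 was among them (log2 ratio 0.53 ± 0.35, edgeR adjusted p = 0.624). At 20 min it measured 63.7, 42.3 and 69.9 CPM and at 40 min 65.6, 37.2 and 54.5 CPM. Lalb_Chr06g0175051 (6.89 FPKM) measured 39.0, 23.6 and 35.3 CPM at 40 min compared with 45.6, 45.9 and 34.0 CPM in control plants (log2 ratio -0.36 ± 0.25, edgeR adjusted p = 0.999).

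The minor phosphorylase Lalb_Chr05g0220071 (0.207 FPKM) was low at 20 min, with 0.0453, 0.424 and 0.0391 CPM compared with 0.175, 0.852 and 2.37 CPM in control plants. Replicate 2 at 20 min overlapped the controls. The log2 fold change was -2.78 with an SE of 1.14, and the edgeR adjusted p was 0.356 (unadjusted 0.0337). Without the 20 min replicate 2 it was -4.73, with an edgeR adjusted p of 0.0649. At 40 min the gene measured 1.68, 2.16 and 0.494 CPM and at 80 min 1.02, 1.36 and 1.26 CPM. The summed phosphorylase level was 15.9 ± 2.94 FPKM in the controls, 16.9 ± 2.43 at 20 min, 17.6 ± 4.73 at 40 min and 19.3 ± 6.12 at 80 min (SD, n = 3 each). In CPM it was 86.0 ± 16.4, 97.6 ± 12.6, 86.5 ± 21.9 and 97.3 ± 30.9 in the same order.

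The 4-alpha-glucanotransferases, also called disproportionating enzymes, pass glucan segments between chains. Lalb_Chr08g0238881 carried 99.0% of the class and was among the steadiest starch genes. It measured 58.5, 63.4 and 60.2 CPM in control plants, 55.1, 66.6 and 47.2 CPM at 20 min, 61.0, 67.7 and 59.2 CPM at 40 min and 53.9, 58.0 and 74.1 CPM at 80 min. Its log2 fold changes over control were -0.11 at 20 min, 0.05 at 40 min and 0.03 at 80 min, each with an SE of 0.18. Its within-group coefficient of variation was 12.7%, beside a median of 35.2% over the 23627 genes. The other gene, Lalb_Chr14g0365451, averaged 0.182 FPKM and varied by 119.8% within groups, with its highest value in the 20 min replicate 1.

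Alpha-amylases cut inside glucan chains, and Lalb_Chr14g0368691 dominated the class in the controls and in some plants after sucrose. It held 84.2% to 97.6% of the class FPKM in the controls. Its share was 91.0% and 91.5% in the 20 min replicates 1 and 3, and 84.2% and 70.8% in the 80 min replicates 1 and 2. In the other sucrose-treated plants it held at most 27.9%. Lalb_Chr14g0368691 measured 0, 2.82 and 1.41 CPM at 40 min, compared with 55.0, 51.9 and 21.8 CPM in control plants. All 3 plants at 40 min were below every control, and replicate 1 had no read of the gene, which allows up to 0.0484 CPM (3 reads, counting error only). The log2 fold change was -4.93 with an SE of 2.06, and the edgeR adjusted p was 0.796 (unadjusted 0.0376). At 80 min it measured 9.57, 6.45 and 0 CPM, again below every control (log2 ratio -3.00 ± 1.88, edgeR adjusted p = 0.603). DESeq2 gave an adjusted p of 0.312 at 40 min.

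At 20 min the same gene measured 143, 2.04 and 87.1 CPM compared with 55.0, 51.9 and 21.8 CPM in control plants, with replicates 1 and 3 above every control and replicate 2 below them (log2 ratio 0.85 ± 1.75, edgeR adjusted p = 0.878). Its neighbour Lalb_Chr14g0368681, with the same name and the same listed length of 420, averaged 1.41 FPKM. The sum of both was 153, 4.72 and 93.3 CPM at 20 min, 1.10, 9.16 and 3.24 CPM at 40 min and 10.2, 7.12 and 1.48 CPM at 80 min, compared with 61.5, 51.9 and 24.3 CPM in control plants. The summed pair was below every control in all 6 plants at 40 and 80 min. Of all genes tested, 8.35% were below every control at 40 min and 9.05% at 80 min. Both times share the same 3 control plants, and the share of genes below at both times was not counted. Over the 4 groups Lalb_Chr14g0368691 had the smallest p of the starch genes in the F test, 0.0615 (edgeR adjusted p = 0.393).

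Lalb_Chr10g0097991 had the smallest p of the genes above control at 40 min, with 17.4, 6.66 and 3.03 CPM compared with 7.98, 1.49 and 3.11 CPM in control plants (log2 ratio 1.11 ± 0.77, edgeR adjusted p = 0.999). Replicate 1 was above every control, and the other 40 min plants lay among the controls. At 20 min it measured 8.52, 8.67 and 4.55 CPM, and at 80 min 0.767, 2.63 and 2.24 CPM. Lalb_Chr19g0131631 averaged 0.461 FPKM, and its log2 fold changes were 0.37, 0.08 and -0.08 at the 3 times. Of the 4 tested alpha-amylases, 4 were above control at 20 min (median log2 fold change 0.82), 3 were above at 40 min (median 0.06) and 4 were below at 80 min (median -1.42), with all genes at medians of 0.06, 0.08 and 0.12. The 1 gene below control at 40 min was Lalb_Chr14g0368691, the most abundant. The summed alpha-amylase level was 23.1 ± 9.94 FPKM in the controls, 39.3 ± 33.6 at 20 min, 4.55 ± 1.72 at 40 min and 3.98 ± 2.32 at 80 min (SD, n = 3 each). In CPM it was 51.2 ± 21.7, 92.5 ± 75.2, 14.7 ± 6.73 and 9.22 ± 4.18 in the same order.

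**Figure D4:**
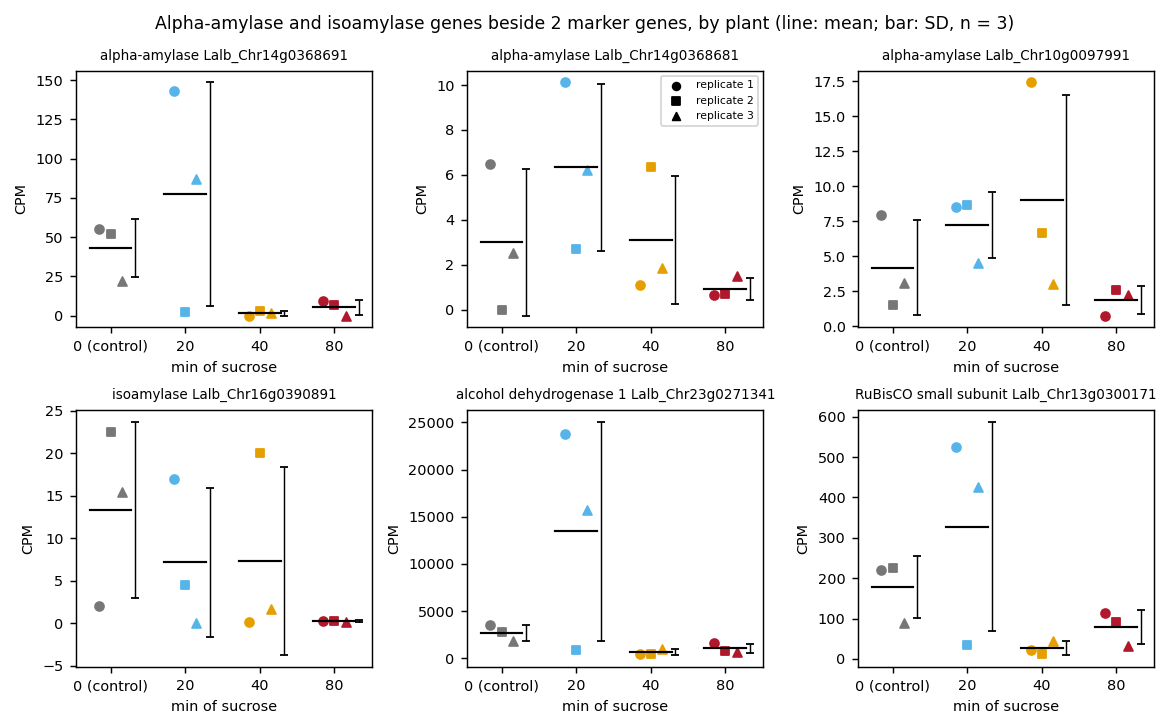
CPM (y axis) of 3 alpha-amylase genes, 1 isoamylase gene and, beside them, alcohol dehydrogenase 1 and a small subunit of RuBisCO, in each plant by min of sucrose (x axis, 0 is control), with marker shape for the replicate number, a line for the mean and a bar for the SD (n = 3). At 20 min replicates 1 and 3 are high and replicate 2 low for Lalb_Chr14g0368691, for alcohol dehydrogenase 1 and for the RuBisCO gene alike.

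At 20 min, 2 marker genes, 1 of low oxygen and 1 of green tissue, were high and low in the same plants as Lalb_Chr14g0368691. Both were picked from the longer lists described below, outside the rule for named genes. The 20 min replicate 2, low for these genes, also lay farthest out on the first principal component. How many of all genes were high and low in the same plants was not counted. Alcohol dehydrogenase 1 (Lalb_Chr23g0271341), an enzyme of fermentation that is induced when oxygen is short, measured 23823, 902 and 15682 CPM at 20 min, 486, 492 and 991 CPM at 40 min and 1601, 810.1 and 721 CPM at 80 min, compared with 3539, 2758 and 1833 CPM in control plants. Like the alpha-amylase, it was below every control in all 6 plants at 40 and 80 min, beside 8.35% and 9.05% of all genes at each time alone. The RuBisCO small subunit gene Lalb_Chr13g0300171, which belongs to green tissue, measured 525, 33.4 and 426 CPM at 20 min, 22.0, 13.0 and 45.2 CPM at 40 min and 113, 90.7 and 31.8 CPM at 80 min, compared with 219, 225 and 90.2 CPM in control plants. Of 111 green tissue genes found by name, 84 were tested, with 73 of these above control and 11 below at 20 min. At 40 min 45 were above and 39 below, and at 80 min 29 were above and 55 below. The shares of all genes tested that were below control were 46.2%, 42.8% and 42.3% at the 3 times. The summed level of the 111 genes was 1958, 570.2 and 1318 CPM in replicates 1, 2 and 3 at 20 min. It was 349 to 683 CPM at 40 min and 459 to 555 at 80 min, against 565 to 729 CPM in control plants. Replicate 2 at 20 min thus lay among the controls, and 0 of the 111 had no read in any library. Of 38 genes named for low oxygen, 36 were tested, 18 above and 18 below control at 20 min, so the list as a whole had no common direction there. At 40 min 18 were above and 18 below, and at 80 min 12 were above and 24 below. Their summed level was 2572 to 31287 CPM at 20 min, 2249 to 3237 at 40 min and 2839 to 4145 at 80 min, against 5416 to 8134 CPM in control plants, and 0 of them had no read in any library. Alcohol dehydrogenase 1 alone made up 23823 of the 31287 CPM in the 20 min replicate 1. The part of either list in the alpha-amylase values, or in those of the AGPases that were low in the same plants, was not tested.

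The 4 root cap genes, from the tissue whose starch serves gravity sensing, were below control at each time, with median log2 fold changes of -1.49 at 20 min, -0.55 at 40 min and -1.09 at 80 min. Of all genes tested, 46.2%, 42.8% and 42.3% were below control at these times. In the edgeR test 0 of 4 passed. At an unadjusted p below 0.05, 3 of the 4 were lower at 20 min (12.6% of all genes in either direction), 1 at 40 min (5.99%) and 1 at 80 min (9.91%). Their summed level was 67.0 to 126 CPM at 20 min, 119 to 129.7 CPM at 40 min and 75.6 to 146 CPM at 80 min, against 155 to 313 CPM in control plants. Their part in the starch gene values was not tested.

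The 2 remaining members share the name putative glucoamylase, starch-binding, carboxypeptidase-like and are listed as membrane proteins of the endoplasmic reticulum, so their membership rests on the word starch in the name. Lalb_Chr15g0078051 was abundant (11.5 FPKM). It measured 105, 96.0 and 57.3 CPM at 80 min compared with 78.0, 68.9 and 53.1 CPM in control plants (log2 ratio 0.37 ± 0.28, edgeR adjusted p = 0.658). At 40 min it measured 109, 61.1 and 84.4 CPM (log2 ratio 0.35 ± 0.28, edgeR adjusted p = 0.999) and at 20 min 49.6, 62.5 and 57.9 CPM. Lalb_Chr04g0260001 averaged 0.633 FPKM and had no read in the 20 min replicate 1, with 2.09 to 5.76 CPM in the others.

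**Figure D5:**
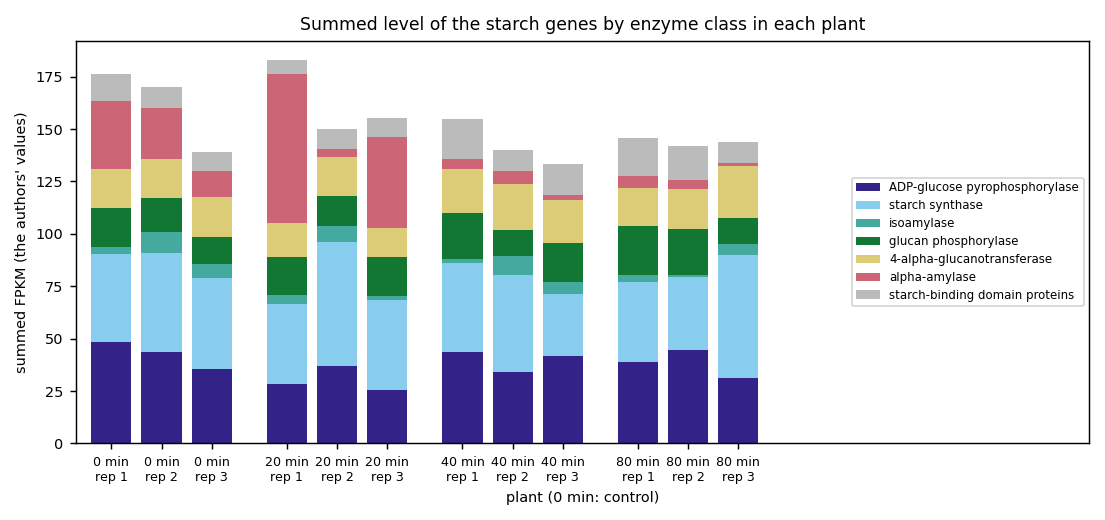
Summed FPKM (the authors' values, y axis from 0) of the starch genes in each of the 12 plants (x axis, 0 min is control), stacked by enzyme class. The alpha-amylase segment varies most, from 1.42 FPKM in the 80 min replicate 3 to 70.6 FPKM in the 20 min replicate 1, while the total stays between 133 and 183 FPKM.

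The stacked plot of class levels shows that AGPases and starch synthases together held 77.0 ± 16.6 FPKM at 20 min, 79.4 ± 7.48 at 40 min and 82.0 ± 6.84 at 80 min, against 86.9 ± 6.82 FPKM in the controls (SD, n = 3 each). In CPM the same sum was 324 ± 63.0, 268 ± 33.5 and 291 ± 22.8, against 323 ± 34.9 in the controls. The lowest mean thus lay at 20 min in FPKM and at 40 min in CPM, so the order of the times depends on the measure. Plants of all 4 groups overlapped.

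The contrasts between 2 sucrose times do not compare with the control plants, though these still entered the shared estimate of the spread. In these contrasts 0 starch genes passed edgeR's test at 40 against 20 min, at 80 against 40 min or at 80 against 20 min, and 0.0% of all genes tested passed in each. At an unadjusted p below 0.05 the counts were 6 at 40 against 20 min beside 14.2% of all genes, 2 at 80 against 40 min beside 4.51%, and 5 at 80 against 20 min beside 17.3%. DESeq2 called 0 starch genes at 40 against 20 min (5.09% of all genes), 0 at 80 against 40 min (0.914%) and 1 at 80 against 20 min (7.47%), the isoamylase Lalb_Chr16g0390891 (log2 fold change -4.96, DESeq2 adjusted p = 0.0182).

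Contrasts with 20 min reuse the same 3 plants as 20 min against control, so a gene that stands apart in both has no separate support. The genes with the smallest p were in part those with an unadjusted p below 0.05 at 20 min against control. At 40 against 20 min these were the starch synthase Lalb_Chr17g0343041 (log2 ratio 1.80 ± 0.64, edgeR adjusted p = 0.277), the phosphorylase Lalb_Chr05g0220071 (log2 ratio 3.13 ± 1.15, edgeR adjusted p = 0.283), the alpha-amylase Lalb_Chr14g0368691 (log2 ratio -5.78 ± 2.15, edgeR adjusted p = 0.286) and the starch synthases Lalb_Chr15g0087621 (log2 ratio -0.66 ± 0.24, edgeR adjusted p = 0.287), Lalb_Chr21g0318691 (log2 ratio 1.21 ± 0.47, edgeR adjusted p = 0.301) and Lalb_Chr02g0149541 (log2 ratio 3.66 ± 1.59, edgeR adjusted p = 0.340). For Lalb_Chr17g0343041, Lalb_Chr05g0220071 and Lalb_Chr02g0149541 every 40 min plant was above every 20 min plant, and 9.52% of all genes tested did the same. Every 40 min plant was below every 20 min plant for Lalb_Chr15g0087621 and 2 further genes, as it was for 8.93% of all genes. These were the starch synthase Lalb_Chr06g0168591 (log2 ratio -1.27 ± 0.79, edgeR adjusted p = 0.494) and the AGPase Lalb_Chr03g0025581, with 9.74, 9.62 and 4.86 CPM at 40 min compared with 23.4, 11.8 and 16.3 CPM at 20 min (log2 ratio -1.09 ± 0.56, edgeR adjusted p = 0.406). At 80 against 40 min the alpha-amylase Lalb_Chr10g0097991 was lower in every plant, at 0.767, 2.63 and 2.24 CPM compared with 17.4, 6.66 and 3.03 CPM (log2 ratio -2.27 ± 0.79, edgeR adjusted p = 0.996). It was the 1 starch gene lower without overlap, beside 4.34% of all genes, and 0 were higher, beside 5.08%. At 80 against 20 min, 3 starch genes were higher without overlap, beside 7.97% of all genes (Lalb_Chr17g0343041, Lalb_Chr02g0149541 and Lalb_Chr05g0220071), and 2 were lower, beside 7.85% (Lalb_Chr14g0368681 and Lalb_Chr10g0097991). At 80 against 20 min the starch synthase Lalb_Chr21g0318691 measured 8.91, 6.91 and 4.31 CPM compared with 1.62, 4.64 and 1.55 CPM (log2 ratio 1.37 ± 0.47, edgeR adjusted p = 0.210).

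The counts between sucrose times changed with the 20 min replicate 2. Without that library 3 starch genes were called at 40 against 20 min, where 4.91% of all genes tested were. They were Lalb_Chr21g0318691 (log2 fold change 1.94, edgeR adjusted p = 0.0275), Lalb_Chr04g0247361 (0.81, edgeR adjusted p = 0.0462) and Lalb_Chr05g0220071 (5.06, edgeR adjusted p = 0.0470). At 80 against 20 min 1 was called, Lalb_Chr21g0318691 (2.07, edgeR adjusted p = 0.0283), beside 3.3% of all genes. For each of these genes the library left out held the highest 20 min value, so the calls are no separate support.

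The starch genes differed widely in their spread between plants of the same group. Among the 26 members with a mean of at least 1 CPM, the median within-group coefficient of variation was 43.4%, beside 35.2% over 23627 genes at that level. Of these, 5 were above the 90th percentile of those genes: the isoamylase Lalb_Chr16g0390891, the 4-alpha-glucanotransferase Lalb_Chr14g0365451, the alpha-amylases Lalb_Chr14g0368691 and Lalb_Chr14g0368681 and the starch synthase Lalb_Chr08g0240201. At or below the 10th percentile were the 4-alpha-glucanotransferase Lalb_Chr08g0238881 and the starch synthase Lalb_Chr02g0159331. Of the 32 tested members, 5 (15.6%) had no read in at least 1 library and at least 100 reads in another, beside 2077 of all 28980 genes tested (7.17%).

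For the rest of the pathway, 79 genes matched 9 of 11 word lists and 70 of them were tested, the water dikinases not counted. These lists were also chosen with earlier results of these data known. They rest on words in the protein name, so some of the genes may not serve starch metabolism. At 20 min 0 of the 70 passed, beside 0.0242% of all genes tested, at 40 min 2 did, both lower, beside 0.0897%, and at 80 min 0 did, beside 0.0104%. Both genes called were beta-amylases, which release maltose from starch. Lalb_Chr20g0118131 fell at 40 min (log2 ratio -3.55 ± 0.42, edgeR adjusted p = 0.0216), as did Lalb_Chr18g0055731 (log2 ratio -2.92 ± 0.39, edgeR adjusted p = 0.0304). Over the averaged sucrose times, where 0.162% of all genes passed, both passed, Lalb_Chr20g0118131 with a log2 ratio of -2.91 ± 0.28, edgeR adjusted p = 0.00483 and Lalb_Chr18g0055731 with a log2 ratio of -2.46 ± 0.27, edgeR adjusted p = 0.00710. Of the 14 beta-amylases, 10 were below control at 20 min (median log2 fold change -0.54), 9 at 40 min (-0.27) and 3 at 80 min (0.42). Their summed level was 134 to 252, 161 to 175 and 218 to 398 CPM at the 3 times, against 499 to 769 CPM in control plants. The 12 other beta-amylases of 14 did not pass. Whether beta-amylases differed from the starch genes in this was not tested.

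Phosphoglucomutases, which interconvert glucose 1-phosphate and glucose 6-phosphate, were above control in 8 of 8 genes at 20 min, 7 of 8 at 40 min and 8 of 8 at 80 min, with median log2 fold changes of 0.71, 0.73 and 0.81, and 0 passed. Branching enzymes, which add branch points to glucans, had medians of -0.16, 0.14 and 0.30 over 5 tested genes of 6. The 7 water dikinases, which phosphorylate starch granules, were added after the values were seen and stand outside the 79 genes. Their medians were 0.63, 0.61 and 0.63, beside 0.06, 0.08 and 0.12 over all genes, and 0 passed. Above control were 4, 5 and 4 of the 7 genes in the same order, with 3, 2 and 3 below. Their summed level was 72.4 to 115, 108 to 153 and 60.7 to 119 CPM, against 71.4 to 141 CPM in control plants. Each of these ranges overlapped that of the controls, so the class sum showed no steady rise. Sucrose synthases, which cleave sucrose with UDP, had medians of 0.15, 0.02 and -0.59 over 10 tested genes of 12, and alpha-glucosidases, which release glucose, 0.24, -0.02 and 0.56 over 7 of 11. The medians were -0.34, -0.15 and 0.58 for 5 tested UDP-glucose pyrophosphorylases, 0.21, 0.27 and -0.17 for 4 glycogenin-like genes, -0.27, 0.35 and 0.73 for 2 maltose transport genes and -0.45, -0.13 and -0.33 for 15 nucleotide carriers, and 0 genes of these lists passed. The lists for phosphoglucan phosphatase and for the glucose 6-phosphate translocator matched no gene.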

How the data were processed

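RNA-seq was run on polyadenylated RNA from root tip sections of 12 plants, 1 library per plant. The deposited table gives whole read counts per gene that were not normalized, and the authors' FPKM values, which follow the counts within a gene, per the file headers and the values. It also lists the authors' log2 fold changes and adjusted p-values, per the file headers. The submitters' processing notes list bcl2fastq 2.20, FastQC, Trimmomatic 0.32, HISAT2, StringTie and DESeq2. The genome build, the strand setting and the treatment of reads matching several genes are not stated in the labels or headers used here.

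Counts of 28980 genes kept by filterByExpr were fitted with edgeR 4.0.16 in R 4.3.3 (TMM scaling, robust quasi-likelihood test, 12 libraries in 1 fit, 8 residual degrees of freedom) and Benjamini-Hochberg adjusted p-values were taken over all of them. A gene was called at an adjusted p below 0.05. SE is the size of a log2 fold change over the root of its F value. CPM values are edgeR's. DESeq2 1.42.0 was the second test. The fit was tested on simulated data.

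Members were found by name, and 37 of 37 identifiers matched NCBI's annotation of CNRS_Lalb_1.0. The members and the gene lists were chosen with earlier results of these data known. Named genes were any member called, the members with the smallest p in each direction at each time, the smallest p of the other comparisons, and the most abundant member of each class. The AGPase Lalb_Chr04g0247561, the starch synthase Lalb_Chr02g0149541 and other genes outside this rule were named after their values were seen. Alternatives were other scaling, other filters, fewer libraries, a replicate block and, chosen after seeing the data, neighbouring members summed. Depth was 35050877 to 105299704 reads per library, and reads had no molecular identifiers, so floors of 3 reads cover counting error only.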

Additional observations from a re-analysis of the deposited data

How the results depend on the processing

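No starch gene was called under RLE scaling, without a filter, with a stricter filter, with the compared groups alone or with neighbouring members summed, in any of the comparisons each could be run on, and at most 0.243% of all genes tested were called in these fits. DESeq2 called 1 starch gene at 80 min against control beside 3.11% of all genes, and 1 at 80 against 20 min, beside 7.47%, in both cases the isoamylase Lalb_Chr16g0390891. Leaving out 1 library at a time, the counts ranged from 0 to 2 at 20 min against control, from 0 to 3 at 40 against 20 min, from 0 to 1 at 80 against 20 min and from 0 to 1 in the F test, the upper value in each case without the 20 min replicate 2, where 3.43%, 4.91%, 3.3% and 3.37% of all genes tested were called. At 80 against 20 min 0 starch genes were called without the 80 min replicate 3, beside 12.0% of all genes. The counts were 0 to 0 in the other 4 comparisons, with at most 1.56% of all genes called. Without that library and the 80 min replicate 3 together they were 3 at 20 min, 1 over the averaged sucrose times, 4 at 40 against 20 min, 3 at 80 against 20 min and 2 in the F test, while 8.16%, 3.55%, 10.7%, 17.8% and 15.2% of all genes tested were called. The cause of these changes was not tested. Over the averaged sucrose times, 3 log2 fold changes near 0 changed sign when 1 library was left out. They ranged from -0.65 to 0.098 for Lalb_Chr06g0168591 (positive without control replicate 2), from -0.11 to 0.027 for Lalb_Chr08g0238881 (0.023 without control replicate 2, 0.027 without the 20 min replicate 3 and 0.0026 without the 40 min replicate 3) and from -0.055 to 0.29 for Lalb_Chr15g0078051 (negative without control replicate 3). Of 431 alternative values for named genes, 422 kept their direction and their side of the threshold. With the replicate number as a block, 0 starch genes were called in every comparison, beside 0.0552% of all genes over the averaged sucrose times, 0.00345% at 80 min against control and 0.0% in the others. Same-numbered libraries did not deviate together: correlations of their deviations from group means ran from -0.22 to 0.16 over 18 pairs, and 5 of 12 libraries correlated best with their own number. Depth limits the 5 untested members and those below 1 FPKM most.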
